A study of Homo sapiens with 6 samples.

Results

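Binding of NRF2, a transcription factor of the oxidative stress response, was examined at 9 genes that make, move or clear heme: FECH, ABCB6, SLC48A1, BLVRA, BLVRB, ALAS1, CPOX, PPOX and UROD. They are 9 of 19974 protein-coding genes in the RefSeq annotation on GRCh38.p14, and were chosen by name. A peak was assigned to a gene when its summit lay inside the gene or within 50 kb of either end. The cells were HMC3, an established human microglial line, and chromatin was fixed and immunoprecipitated with an antibody to NRF2. The CDDO-Im group (2 libraries) came from HMC3 cells given CDDO-Im, a synthetic triterpenoid that activates NRF2, at 30 nM for 4 h. The vehicle group (2 libraries) is named only in the sample titles, since one treatment text stands for all samples. A further 2 input samples, with no antibody, were not analysed here. The labels do not say whether the 2 libraries of a group are separate cultures, and their spread may be technical. The lists held 3882 and 12244 peaks in CDDO-Im 1 and 2 and 4098 and 7308 in vehicle 1 and 2, on chromosomes 1 to 22 and X. Peak lists hold no expression values, so the cell type could not be checked against its markers.

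Heme is built from glycine and succinyl-CoA by enzymes that lie partly in mitochondria and partly in the cytosol. It is opened by heme oxygenase to biliverdin, iron and carbon monoxide, and biliverdin is then reduced to bilirubin. Heme oxygenase 1 is a classical NRF2 target, and heme also releases the repressor BACH1 from sites that NRF2 shares with it. These sites are known as antioxidant response elements.

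The promoter of FECH is shown because part of it lies inside a listed peak, and that of ABCB6 because it holds a sequence match, marked below. Each is the RefSeq window from 250 bases before to 50 bases after the start site (GRCh38.p14), in the direction of transcription. FECH lies on the minus strand at chr18:57586653-57586952, and the capitals mark the 124 bases that lie inside the listed peak of CDDO-Im 2. The CDDO-Im 1 peak covers only those capitals that lie 172 bp or more before the start site. ABCB6 lies on the minus strand at chr2:219218909-219219208, where no library listed a peak, and the capitals mark a match to TGACNNNGC, the core of the antioxidant response element.
FECH: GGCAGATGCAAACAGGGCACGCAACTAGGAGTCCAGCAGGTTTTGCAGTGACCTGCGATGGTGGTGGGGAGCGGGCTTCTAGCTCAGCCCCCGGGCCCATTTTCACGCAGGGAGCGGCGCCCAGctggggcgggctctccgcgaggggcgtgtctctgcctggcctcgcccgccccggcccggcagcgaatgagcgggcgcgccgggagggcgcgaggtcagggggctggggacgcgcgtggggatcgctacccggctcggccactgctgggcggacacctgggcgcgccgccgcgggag
ABCB6: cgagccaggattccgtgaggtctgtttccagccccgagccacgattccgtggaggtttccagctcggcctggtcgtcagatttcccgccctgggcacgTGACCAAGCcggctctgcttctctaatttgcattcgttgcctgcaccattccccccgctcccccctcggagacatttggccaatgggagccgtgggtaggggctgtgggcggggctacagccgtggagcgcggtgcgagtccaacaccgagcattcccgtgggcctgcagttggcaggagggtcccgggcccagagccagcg

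Both strands of these windows were searched for TGACNNNGC. It occurred in 2 of the 9 heme genes, FECH and ABCB6, and in 14.3% of the 15812 protein-coding genes with a window in the table (first listed window of each gene). The FECH match (TGACCTCGC on the opposite strand) began 38 bases before the start site, at -38, and lay outside both listed peaks. The ABCB6 match (TGACCAAGC) began at -152, while the nearest edge of a listed ABCB6 peak lay 797 bp after the start site. The AP-1 sequence TGACTCA, which can overlap with the element, was in the window of none of the 9 genes and in 3.67% of all. The windows cover only the sequence next to the start sites. The FECH summits, 308 and 295 bp before the start site, lie outside the FECH window. No summit of a heme gene peak lies in a window, so the sequence under the summits was not analysed here.

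Over all libraries, 13 peaks in 5 regions lay at 4 of the 9 genes (FECH, ABCB6, SLC48A1 and CPOX), against 31.5% of all protein-coding genes with a peak in any library. A region is a set of peaks that overlap by at least 1 bp. FECH, ABCB6 and SLC48A1 each had a peak in both CDDO-Im libraries, as did 12.5% of all genes, and the CDDO-Im libraries listed no peak at any of the other 6. BLVRA, BLVRB, ALAS1, PPOX and UROD had no listed peak within 50 kb in any library. The strength of a peak is given as tags, the number of fragments at its summit, recovered from the deposited fold enrichment and p. Each of the 13 peaks had a single match in whole tags. For comparison between libraries, tags were divided by the genome-wide background of the library, between 0.315 and 0.367 tags. Exact 95% Poisson intervals of tags cover counting error only.

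FECH, the last enzyme of heme synthesis, inserts iron into protoporphyrin. Its region (chr18:57586829-57587158) held 18 tags in CDDO-Im 1 (interval 10.7 to 28.4) and 30 tags in CDDO-Im 2 (20.2 to 42.8), and no peak in either vehicle library. The authors' fold enrichment was 13.7 and 20.1, and the −log10 q was 20.6 and 37.8, in CDDO-Im 1 and 2. These peaks ranked 529 of 3882 and 508 of 12244 by fold enrichment within their own lists. The summits lay 308 and 295 bp before the FECH start site, outside the gene, and no RefSeq gene covered the summit of CDDO-Im 2. The peak edges nearest to the gene lay 172 and 127 bp before the start site. The next protein-coding gene, NARS1, which encodes asparaginyl-tRNA synthetase, was 13659 bp from that summit. The closest vehicle summits were 339.2 kb from FECH in both vehicle libraries. At a local background like that of the FECH peaks, the vehicle lists held peaks from 4 tags upwards, with a median of 7. Occupancy below that range would not show, so the absence of a vehicle peak is not absence of NRF2. The 1428 regions outside dense megabases that were in both CDDO-Im lists and in no vehicle list had medians of 11 and 16 tags in CDDO-Im 1 and 2, so FECH stood above both medians. Dense megabases are the 77 megabases with more than 20 regions each, and no region of a heme gene lay in one.

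ALAS1, which catalyses the first and rate-limiting step of heme synthesis, had its nearest summits at 136.2 and 538.2 kb in CDDO-Im 1 and 2, and at 1022.0 kb in both vehicle libraries. UROD, which decarboxylates uroporphyrinogen, had a summit at 82.5 kb in CDDO-Im 2 and at 251.0 kb in CDDO-Im 1, against 1812.3 and 2233.1 kb in vehicle 1 and 2. PPOX, the protoporphyrinogen oxidase, had its nearest summits between 352.2 kb (CDDO-Im 2) and 747.7 kb (vehicle 1). ALAS1, UROD and PPOX thus had no listed peak within 50 kb in either group. CPOX, the coproporphyrinogen oxidase, had a single peak, in vehicle 2, 16618 bp beyond the gene and 39741 bp after its start site (chr3:98553715-98553883). It held 6 tags (interval 2.2 to 13.1), at a fold enrichment of 5.00 and a −log10 q of 3.02, and ranked 4919 of 7308 in its list. The other 3 libraries listed peaks at a like background from 4 tags upwards and none at this place. This peak had the fewest tags of the 13, and the next gene, GPR15, was 19189 bp from it.

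**Figure D1:**
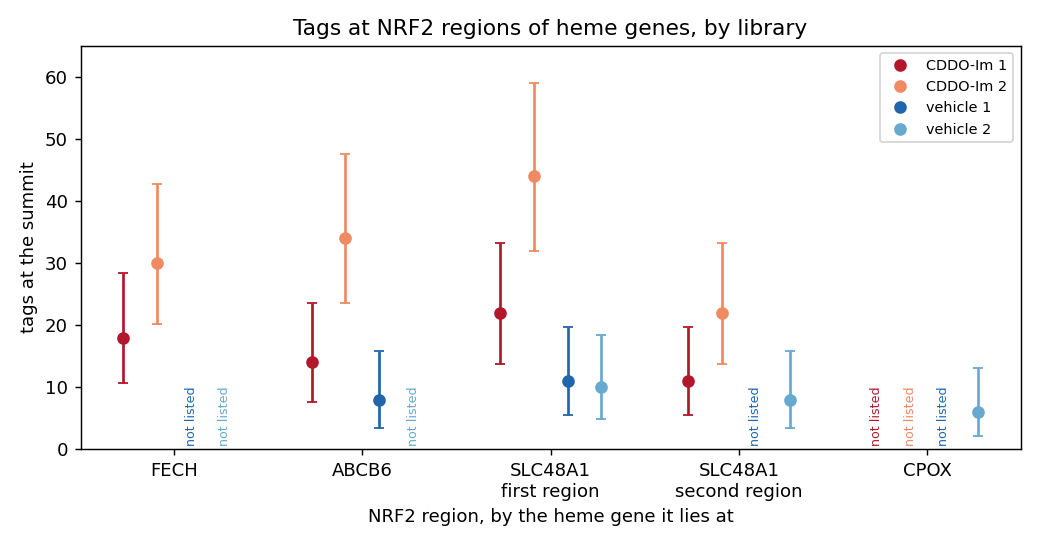
Tags at the summit of each NRF2 region at a heme gene, by library, with exact 95% Poisson intervals as bars. CDDO-Im points stand left of vehicle points, and a library with no peak there is marked as not listed. CDDO-Im 2 had the most tags at FECH, ABCB6 and both SLC48A1 regions, and only vehicle 2 listed the CPOX peak.

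ABCB6, a transporter of the ABC family linked to porphyrin transport, had 1 region inside the gene (chr2:219217790-219218161). It held 14 tags in CDDO-Im 1 (interval 7.65 to 23.5) and 34 in CDDO-Im 2 (23.5 to 47.5), against 8 tags in vehicle 1 (3.45 to 15.8) and no peak in vehicle 2. Both CDDO-Im libraries thus lay above the vehicle library that listed it, but the intervals of CDDO-Im 1 and vehicle 1 overlapped. Divided by the genome-wide background, the values were 42.2 and 92.5 in CDDO-Im 1 and 2 and 25.4 in vehicle 1. The authors' fold enrichment was 10.5, 23.2 and 6.54 in the same order, and the −log10 q was 13.5, 45.7 and 5.12. The summits lay 995 and 1011 bp after the start site in CDDO-Im 1 and 2 and 982 bp after it in vehicle 1, a spread of 29 bp. ATG9A, a neighbouring autophagy gene, was 1433 bp from the summit of CDDO-Im 2. The closest summit of vehicle 2 was 74.1 kb from ABCB6, outside the 50 kb limit. Of the 560 regions listed by both CDDO-Im and 1 vehicle library, 78.6% were higher in both CDDO-Im libraries over background. The medians of these regions were 17 and 25 tags in CDDO-Im 1 and 2, and 8 and 9 in vehicle 1 and 2 where listed.

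SLC48A1, which moves heme out of lysosomes into the cytosol, had the most peaks, 7 in 2 regions. Both regions lay inside the gene. The RefSeq gene begins at 47753934, before the start site used for distances here (47773238). The first (chr12:47775469-47775867) was listed by all 4 libraries, with 22 tags in CDDO-Im 1 (interval 13.8 to 33.3) and 44 in CDDO-Im 2 (32.0 to 59.1), against 11 in vehicle 1 (5.49 to 19.7) and 10 in vehicle 2 (4.80 to 18.4). Both CDDO-Im libraries were above both vehicle libraries, but the interval of CDDO-Im 1 overlapped those of vehicle 1 and 2. Over the genome-wide background these tags were 66.3 and 119.8 in CDDO-Im 1 and 2 and 34.9 and 31.8 in vehicle 1 and 2, with means of 93.0 ± 37.8 and 33.3 ± 2.17 (SD, n = 2 each). The difference was 1.42 on the log2 scale, or 2.68-fold, with an exact permutation p of 0.333 (two-sided), the smallest that 2 against 2 libraries allow. The authors' fold enrichment was 13.0 and 25.5 in CDDO-Im 1 and 2 and 6.87 and 6.54 in vehicle 1 and 2. The 4 summits lay 2442, 2422, 2396 and 2429 bp after the start site in the order CDDO-Im 1 and 2, vehicle 1 and 2, so they fell within 46 bp.

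The second SLC48A1 region (chr12:47776684-47777118) had its summits 3635 and 3633 bp after the start site in CDDO-Im 1 and 2 and 3623 bp after it in vehicle 2. It held 11 tags in CDDO-Im 1 (interval 5.49 to 19.7) and 22 in CDDO-Im 2 (13.8 to 33.3), against 8 in vehicle 2 (3.45 to 15.8) and no peak in vehicle 1. In all 3 libraries that listed it, this region had fewer tags than the first. Over the genome-wide background both CDDO-Im libraries, at 33.2 and 59.9, were above vehicle 2, at 25.4, though the intervals of CDDO-Im 1 and vehicle 2 overlapped. The same direction was seen in 78.6% of the 560 regions listed by both CDDO-Im and 1 vehicle library. By the authors' fold enrichment the order was different, with 5.58 in CDDO-Im 1 and 16.8 in CDDO-Im 2 against 6.85 in vehicle 2. The local background recovered at this region was 1.15 tags in CDDO-Im 1, 0.367 in CDDO-Im 2 and 0.315 in vehicle 2, so the 2 measures differ by that background. Without CDDO-Im 1, the direction was the same by both measures. The −log10 q was 4.59 and 28.1 in CDDO-Im 1 and 2 and 6.01 in vehicle 2. By fold enrichment these peaks ranked 2613 of 3882, 736 of 12244 and 1492 of 7308 within their own lists, in the same order. HDAC7, a histone deacetylase gene, was the next gene, 7062 bp from the first summit and 5851 bp from the second.

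**Figure D2:**
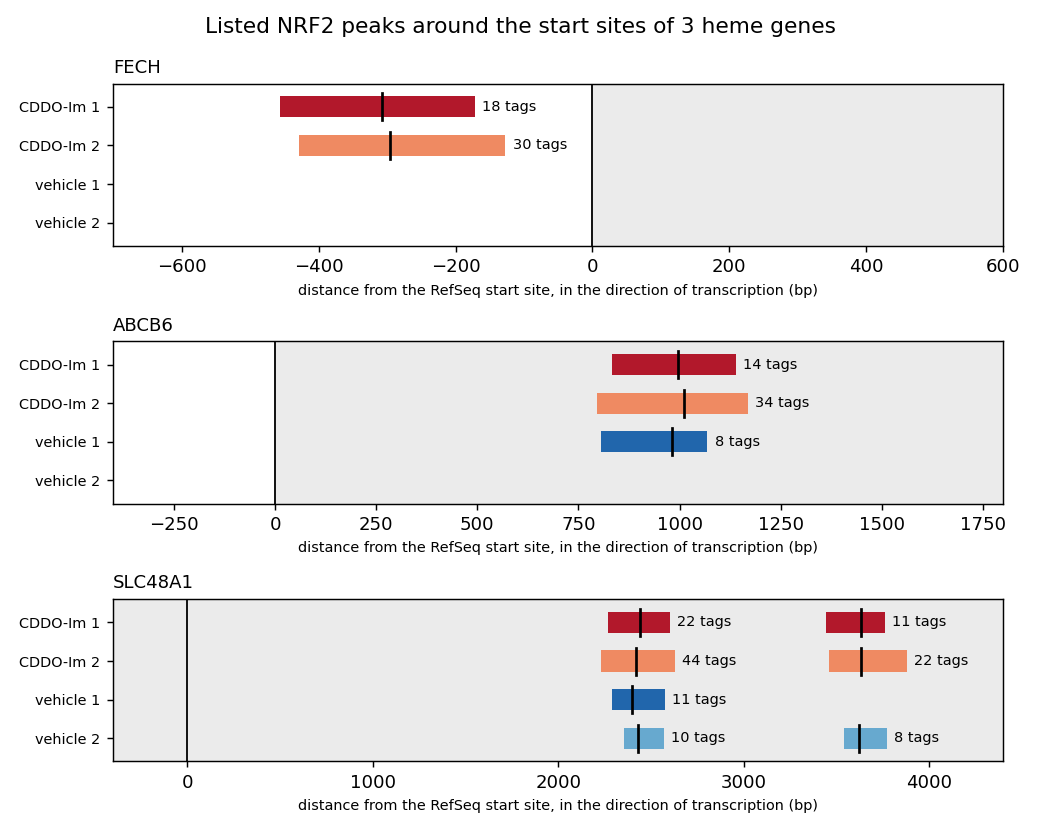
Listed NRF2 peaks around the start sites of FECH, ABCB6 and SLC48A1, as bars from the left to the right edge of each peak with a black line at the summit. The horizontal axis is the distance from the RefSeq start site in bp in the direction of transcription, the shaded area is the RefSeq gene (which for SLC48A1 begins before the start site used), and an empty row is a library with no peak. FECH peaks lie before the start site, and ABCB6 and SLC48A1 peaks lie after it.

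At the 4 heme gene regions with a peak in both CDDO-Im libraries, CDDO-Im 2 had more tags over background than CDDO-Im 1 every time. The log2 difference of CDDO-Im 2 minus CDDO-Im 1 was 0.59 at FECH, 1.13 at ABCB6 and 0.85 at each SLC48A1 region. Over the 2116 regions of both CDDO-Im libraries outside dense megabases the median of this difference was 0.38, and 75.9% were higher in CDDO-Im 2. At ABCB6 the spread between the CDDO-Im libraries (SD 0.80 on the log2 scale) stood beside a difference to vehicle 1, the only vehicle library with a value there, of 1.30, and no test was possible.

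BLVRA and BLVRB encode the enzymes that reduce biliverdin. The nearest summits to BLVRA were 327.5 kb away in both CDDO-Im libraries, and 1453.7 and 11460.1 kb away in vehicle 1 and 2. For BLVRB they were 225.3 kb away in both CDDO-Im libraries, and 155.0 and 975.6 kb away in vehicle 1 and 2. Neither gene thus had a listed peak that could be assigned to it in any library. At the genome-wide background, each of the 4 lists held peaks from 4 tags upwards, so weaker occupancy at these genes would not show.

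**Figure D3:**
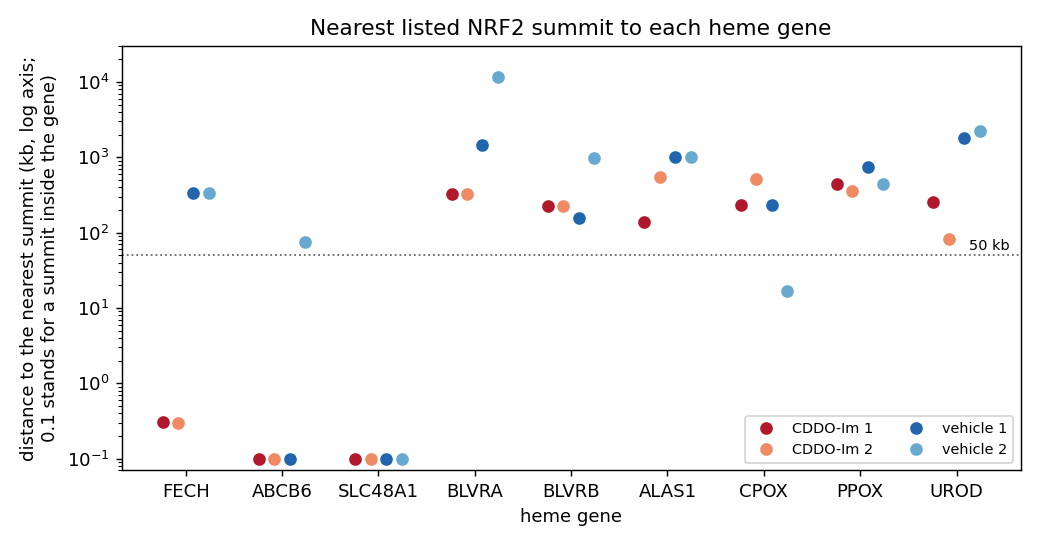
Distance from each heme gene to the nearest listed NRF2 summit, in kb on a log axis, with 1 point per library (0.1 stands for a summit inside the gene, and the dotted line is the 50 kb limit). FECH, ABCB6 and SLC48A1 have both CDDO-Im points below the limit, and CPOX has only its vehicle 2 point there.

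The members were then set beside all protein-coding genes under the same rule. A peak in both CDDO-Im libraries was found at 3 of the 9 heme genes (FECH, ABCB6 and SLC48A1), against 12.5% of all 19974 genes. A peak in both vehicle libraries was found at 1 of 9 (SLC48A1), against 2.23% of all genes. A peak in both CDDO-Im and neither vehicle library was found at 1 of 9 (FECH), against 6.85%. These last counts turned on single vehicle libraries. Without vehicle 1, ABCB6 joined FECH as a gene with CDDO-Im peaks only (2 of 9, against 8.06% of all genes), and CPOX joined SLC48A1 on the vehicle side (2 of 9, against 7.53%). Without vehicle 2, the vehicle genes were ABCB6 and SLC48A1 (2 of 9, against 6.66%). At a −log10 q of at least 10, no heme gene had a peak in both vehicle libraries, against 0.396% of all genes, and FECH, ABCB6 and SLC48A1 (3 of 9) had CDDO-Im peaks only, against 5.23%. A peak in any library was found at 4 of 9, against 31.5% of all genes, so this count was near the background. By library, CDDO-Im 1 and 2 listed a peak at the same 3 of 9 genes, against 16.4% and 23.0% of all genes. Vehicle 1 listed 2 of 9 (ABCB6 and SLC48A1), against 6.66%, and vehicle 2 listed 2 of 9 (SLC48A1 and CPOX), against 7.53%. With 9 genes chosen by hand and known results, these shares are descriptions and were not tested. The median distance to the nearest summit over the heme genes was 225.3 kb in both CDDO-Im 1 and 2, and 339.2 and 439.4 kb in vehicle 1 and 2. Over all genes it was 280.3 and 177.3 kb in CDDO-Im 1 and 2, and 789.8 and 715.5 kb in vehicle 1 and 2. The median heme gene was thus nearer to a summit than the median gene in CDDO-Im 1 and in vehicle 1 and 2, and farther in CDDO-Im 2, and these differences were not tested. The farthest summit inside the 50 kb limit was 16.6 kb away (CPOX). The nearest outside it were 74.1 kb (ABCB6, vehicle 2) and 82.5 kb (UROD, CDDO-Im 2) away. With a limit of 100 kb, ABCB6 joined SLC48A1 as a gene with a peak in both vehicle libraries.

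**Figure D4:**
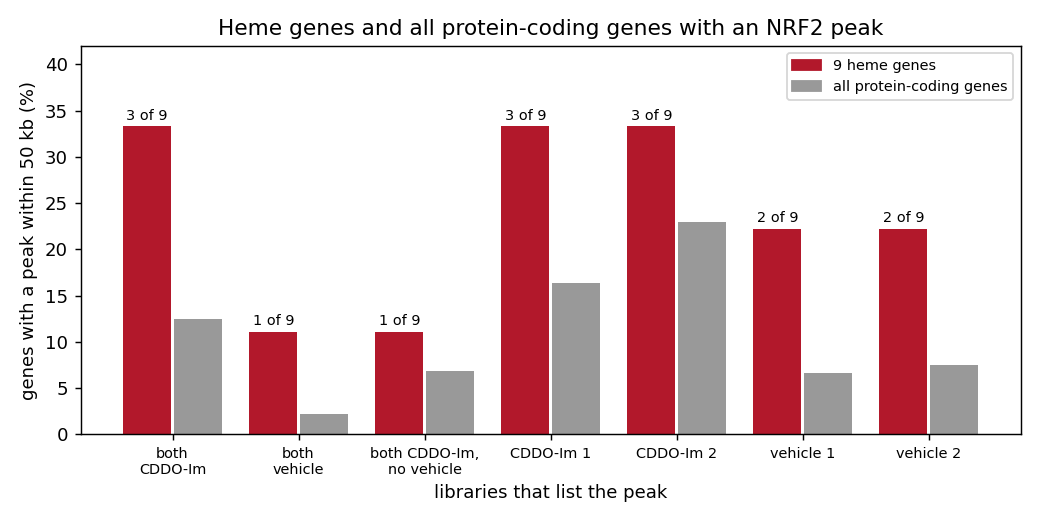
Share of genes with an NRF2 peak within 50 kb, in percent, for the 9 heme genes (red, with the count above the bar) and all 19974 protein-coding genes (grey), by the libraries that list the peak. The heme genes have 3 of 9 for both CDDO-Im libraries against 12.5% of all genes, and 1 of 9 for both vehicle libraries against 2.23%.

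The difference at SLC48A1 was set beside that of all regions shared by the 4 libraries. Of the 433 regions listed by all 4 libraries, 47.8% were higher in both CDDO-Im libraries over background, and of the 230 outside dense megabases 87.0% were. The log2 difference of 1.42 at SLC48A1 lay below the median of 1.68 for the 230 regions outside dense megabases (quartiles 1.24 and 1.96), and above 32.2% of them. Over all 433 regions, dense megabases included, it lay above the median of 0.266 and above 63.7% of them, so its place depends on whether dense megabases are counted. The medians of those 230 regions were 35 and 54.5 tags in CDDO-Im 1 and 2 and 11 and 13 in vehicle 1 and 2, so SLC48A1 had fewer CDDO-Im tags than the median and about as many vehicle tags. Among 353 other genes with such a region within 50 kb, the pattern over the 4 libraries most like that of SLC48A1 was at OR4F29, LOC124905558 and LOC128966566. These share 1 region on chromosome 1 (474560 to 474951) with 23 and 42 tags in CDDO-Im 1 and 2 and 10 and 10 in vehicle 1 and 2, a Euclidean distance of 0.166 in log2 tags over background. The region lies outside OR4F29, an olfactory receptor gene with near-identical copies, and whether its reads map to a single place was not tested.

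**Figure D5:**
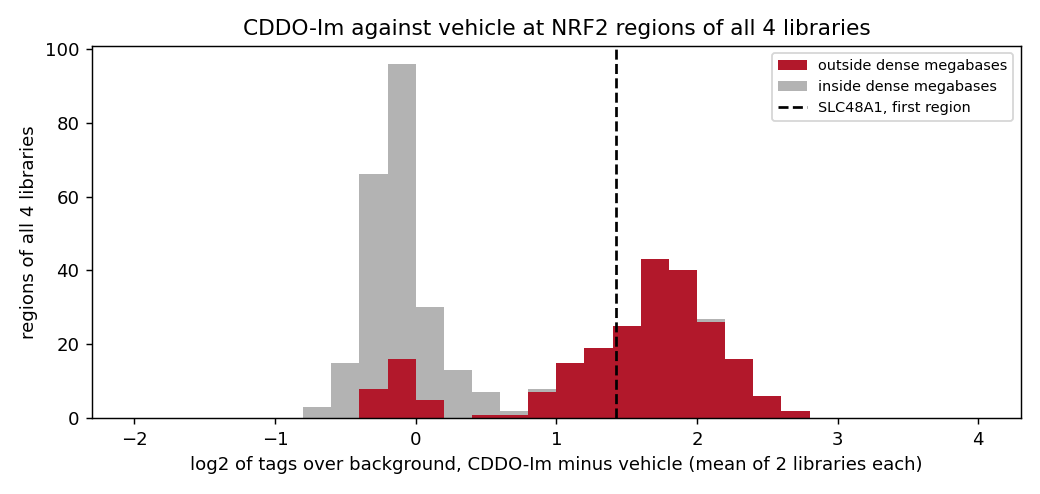
Number of NRF2 regions of all 4 libraries by the log2 difference in tags over background, CDDO-Im minus vehicle (mean of 2 libraries each), outside (red) and inside (grey) dense megabases. The dashed line is the first SLC48A1 region at 1.42, below the median of 1.68 outside dense megabases and above the median of 0.266 over all 433 regions.

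Other genes of the heme pathway were counted in the same way, from a list of 22. A peak in both CDDO-Im libraries was found at 3 of the 22 (ABCG2, HMOX1 and HEBP2), against 12.5% of all genes, a share near the background. A peak in both vehicle libraries was found at 1 of the 22, HMOX1, against 2.23%. HMOX1, which opens the heme ring, had 2 regions of all 4 libraries on chromosome 22. The stronger (35371769 to 35372408) held 114 and 188 tags in CDDO-Im 1 and 2 against 36 and 46 in vehicle 1 and 2. Each library had between 3.27 and 5.18 times the tags that it had in the first SLC48A1 region. ABCG2, an exporter that also carries porphyrins, had an intragenic region (chromosome 4, 88178305 to 88178665). Its tags were 20 and 37 in CDDO-Im 1 and 2, against 9 in vehicle 2, while vehicle 1 listed no peak. HEBP2, of the heme-binding protein family, had a weak region with 8 and 12 tags in CDDO-Im 1 and 2 that lay 45431 bp from it and closer to ARFGEF3. CDDO-Im 2 alone listed a peak near TMEM14C (14 tags, inside the neighbouring TMEM14B). No listed peak lay within 50 kb of 17 of the 22, among them the synthesis enzymes ALAS2, ALAD and UROS. The 5 with a peak in any library stand against 31.5% of all genes, so this count too was near the background.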

How the data were processed

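NRF2 ChIP-seq peak lists of 2 CDDO-Im and 2 vehicle libraries of HMC3 cells were used. The submitters' processing notes name the peak caller MACS2 (2.2.7.1), the aligner BWA (0.7.17) and bcl2fastq (2.15.0), and the builds hg38 and GRCm38. The control sample, the peak threshold and any removal of duplicates were not given in the sources used here, so their effect on the lists is unknown. Peaks were listed per library, not on pooled samples, per the peak names. Each deposited peak carries the authors' own fold enrichment (a ratio), −log10 p and −log10 q. The deposited score column was 10 times −log10 q to within 1 unit.

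Peaks on chromosomes 1 to 22 and X were kept. Tags were recovered as the whole number that fits the fold (tags plus 1 over background plus 1) and the Poisson tail, within 0.001 plus a relative 0.0002. Library totals are not in the lists, so the lowest recovered background served as depth. Tests were exact permutation tests. Recovery, joining and gene counts were tested on simulated data. Coordinates are 1-based on hg38, and genes, start sites and promoters are from RefSeq on GRCh38.p14. All 9 members and all 22 pathway genes were matched. PPOX has a second start site in the promoter table, and the first listed was used. Exons and introns were not in the annotation.

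The 9 members and the pathway list were chosen with earlier results of these data known. All members are named. Of the pathway list, genes with a peak in both CDDO-Im libraries are named, and TMEM14C was named after its values were seen. Some genes of this list are counted but not reported here by name. The genes most like SLC48A1 and the next gene of each region followed fixed rules. Alternatives were other windows, stricter thresholds, other joining and scaling, and leaving out each library. Python 3.11.15, pandas 2.3.3, numpy 2.4.6, scipy 1.17.1 and matplotlib 3.10.9 were used.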

Additional observations from a re-analysis of the deposited data

How the results depend on the processing

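FECH, ABCB6 and SLC48A1 were the genes with a peak in both CDDO-Im libraries (3 of 9) with a window of 10 kb, the nearest gene only, a −log10 q of at least 5 or 10, and the same joined region. The same 3 genes were counted with a window of 100 kb and with either CDDO-Im library left out, where the rule was a peak in the remaining CDDO-Im library. A wider window or a library left out can only keep or add genes, so these alternatives could not have lost any of the 3. The share of all genes moved meanwhile, with 12.5% in the main setting, 6.2% at 10 kb and 20.6% at 100 kb. With the nearest gene only, the share was 7.22%. The stricter −log10 q limits of 5 and 10 gave 10.1% and 6.66%. Leaving out CDDO-Im 1 gave 23.0%, and leaving out CDDO-Im 2 gave 16.4%. With the same joined region, no share of all genes was calculated. The count for both vehicle libraries (main value 1) was 2 with a window of 100 kb, which adds ABCB6 (4.06% of all genes), and 0 at a −log10 q of at least 10 (0.396%). Without vehicle 1 it was 2 (SLC48A1 and CPOX, 7.53%) and without vehicle 2 also 2 (ABCB6 and SLC48A1, 6.66%). The count for both CDDO-Im and neither vehicle library (main value 1) was 3 at a −log10 q of at least 10 (5.23%). It lay between 1 and 2 when a library was left out, with ABCB6 added without vehicle 1 (8.06%). FECH alone (1 of 9) was counted without CDDO-Im 1, against 16.2% of all genes, without CDDO-Im 2 (10.2%) and without vehicle 2 (9.25%). These counts move by construction with which vehicle peaks are listed.

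The SLC48A1 difference of 1.42 on the log2 scale was 1.57 with tags not divided, 1.47 with the background over the width of the shortest peak, 1.44 with fold enrichment, and between 0.995 (without CDDO-Im 2) and 1.85 (without CDDO-Im 1) when a library was left out. With the replicate block it was 1.42, the same value by construction, with an exact sign-flip p of 0.5, the smallest for 2 pairs. Nothing in the labels pairs the libraries. Deviations of same-numbered libraries correlated at 0.241 over the 433 regions of all 4 libraries and at -0.0433 over the 230 outside dense megabases. Most member peaks rested on few tags, which limits every ratio given.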
